A study of Homo sapiens with 4 samples.

Results

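The 10 genes described here are the TEAD transcription factors TEAD1, TEAD2, TEAD3 and TEAD4, their coactivators YAP1 and WWTR1 (the gene of TAZ), the angiomotin-like genes AMOTL1 and AMOTL2, and the growth factor genes CCN1 and CCN2 (formerly CYR61 and CTGF). They were chosen by name as genes at the output of the Hippo pathway, with earlier results of these data known. Every probe set assigned to 1 of them alone was taken, 23 of 52377 probe sets on the array, so that 10 of 19798 measured genes are covered. The RNA on the 4 arrays came from the HCT-116 dicer- line, human colon carcinoma cells with an altered Dicer (the ribonuclease that processes microRNA precursors), 24 h after transfection. Of these, 2 arrays held mock transfections, 1 from cells transfected with 10 nM of the miR-124 duplex G/P, whose guide strand is intact, and 1 from cells transfected with 10 nM of the miR-124 duplex G10.12/P, whose guide strand is segmented. All 3 groups thus carry the alteration of Dicer, a duplex of another sequence was not analysed here, and the labels do not say whether the line is a clone. The study asks whether a microRNA whose guide strand is cut into segments keeps the activity of its seed, the 5′ stretch that pairs with target messenger RNAs.

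The Hippo pathway is a kinase cascade that restrains growth. Its kinases phosphorylate YAP1 and TAZ, which are then held in the cytoplasm and degraded; when the kinases are inactive, both proteins enter the nucleus, bind TEAD factors on DNA and switch on genes such as CCN1 and CCN2. Angiomotin proteins hold YAP1 at cell junctions, and in the intestine YAP1 is known for its part in regeneration after injury and in tumour growth. miR-124 is best known as a neuronal microRNA.

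With the intact duplex TEAD1, TEAD4, YAP1, CCN1 and CCN2 were lower than in mock cells and TEAD2 and TEAD3 were higher, while WWTR1, AMOTL1 and AMOTL2 did not pass the test. CCN2 had the largest change of the 10, a 3.56-fold fall. With the segmented duplex 3 of these, YAP1, CCN1 and CCN2, passed, all lower than mock, and CCN2 again stood farthest from mock, at 2.75-fold lower. The YAP1 calls rest on the probe set chosen, and with the mean of all its probe sets YAP1 passed with neither duplex. The TEAD genes had changes of the same sign with the segmented duplex, but none of the 4 passed.

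Changes were tested with limma over all 19798 genes, at a Benjamini-Hochberg adjusted p of 0.05, on log2 intensity. With the intact duplex 7 of the 10 genes passed, against 24.9% of all genes. Of the 10, 5 were lower, against 10.4%, and 2 were higher, against 14.5%. With the dimmest 40% of genes left out, 7 of the 10 again passed with the intact duplex, against 58.5% of the 11879 genes tested. With the segmented duplex 3 of 10 passed, all lower, against 5.99% of all genes passing in either direction and 2.68% passing as lower; 0 of 10 were higher, against 3.31%. At an unadjusted limma p under 0.05 there were 7 of the 10 and 7822 of all genes with the intact duplex. With the segmented duplex there were 8 of the 10 and 5416 of all genes. The median log2 change of the 10 genes was -0.61 with the intact and -0.51 with the segmented duplex. The medians over all genes were 0.02 and 0.01. Since the 10 were chosen with earlier results of these data known, these contrasts with all genes describe and do not test. Each duplex had a single array, so the test takes its spread from the mock pair and assumes that a treated array varies in the same way; nothing says that the mock arrays were separate cultures, so the spread behind the p-values may be technical. The segmented count rests on the setting: with the dimmest 40% of genes left out, with a prior that follows the level and is fitted robustly, or with log2(intensity + 16), 8 of 10 passed, the 4 TEAD genes and AMOTL1 in addition. Of all genes tested 40.2%, 27.4% and 21.6% passed under these settings, in that order.

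The arrays as a whole were alike in median intensity, 42.6 to 46.3 over all probe sets. DICER1, the altered gene, had log2 levels between 10.80 and 11.28, and its probe sets may lie outside the altered part, so that its level checks nothing. All 7 measured epithelial markers (EPCAM, CDH1, KRT18, KRT19, CLDN4, CLDN7 and ELF3) lay above the median of all genes, log2 6.76, on every array. Of 12 fibroblast, leukocyte and endothelial markers, COL1A1 alone did so; the other 11 lay at log2 5.13 or lower. The summed intensity of these 12 was 584 and 532 in mock cells, 1024 with the intact and 771 with the segmented duplex, and without COL1A1 it was 166, 192, 157 and 179. The part of such markers in the results was not tested.

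**Figure D1:**
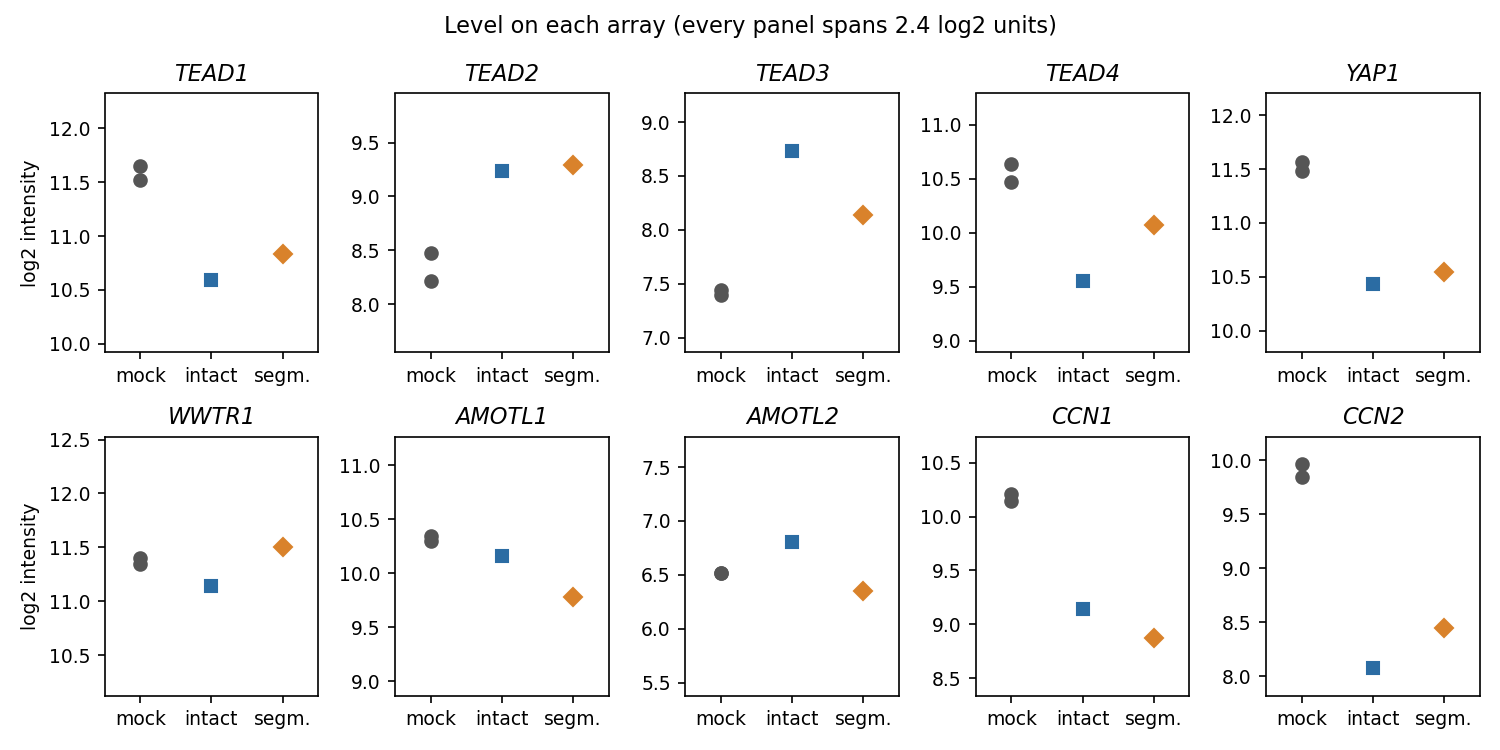
Log2 intensity of the probe set that stands for each gene, with 1 point per array: circles for the 2 mock arrays, a square for the intact duplex and a diamond for the segmented duplex. Every panel spans the same number of log2 units, and levels of different genes are not comparable; CCN1 and CCN2 lie below both mock arrays with either duplex and TEAD2 and TEAD3 above both.

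TEAD1 and TEAD4, DNA-binding factors that carry YAP1 and TAZ to their target genes, were lower with both duplexes. TEAD1 had log2 levels of 11.52 and 11.65 in mock cells, 10.59 with the intact and 10.83 with the segmented duplex. Both duplex arrays lay below both mock arrays, by more than the mock arrays differed from each other. The fall with the intact duplex was 1.99-fold (log2 change -0.99, SE 0.13, limma adjusted p = 0.0175). With the segmented duplex the log2 change was -0.76 (limma adjusted p = 0.0615), which did not pass; with the mean of all TEAD1 probe sets in place of the brightest it was -0.997 and passed (limma adjusted p = 0.0336).

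The 3 probe sets of TEAD1 gave like results. The brightest, 100301799_TGI_at, is the one given above. In 100160247_TGI_at the log2 level went from 8.57 and 8.63 in mock to 7.24 with the intact and 7.58 with the segmented duplex, and in 100157036_TGI_at from 7.79 and 7.83 to 6.29 and 6.60. Both of the dimmer probe sets thus changed more than the brightest, by -1.36 and -1.52 with the intact duplex and by -1.02 and -1.22 with the segmented one. Fitted over all 52377 probe sets, all 3 passed with the intact duplex (limma adjusted p = 0.0252, 0.0142 and 0.0128, from the brightest to the dimmest) and none with the segmented one (0.0891, 0.0569 and 0.0509). Over these probe sets 10 of the 23 passed with the intact duplex, against 17.1% of all probe sets, and 2 of 23 (CCN1 and CCN2) with the segmented one, against 1.39%.

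TEAD4 has a single probe set. Its log2 level was 10.64 and 10.47 in mock, 9.55 with the intact and 10.07 with the segmented duplex. Both duplexes gave values below both mock arrays, the segmented one between mock and the intact duplex. The fall with the intact duplex was 2.01-fold (log2 change -1.01, SE 0.14, limma adjusted p = 0.0185), and the change of -0.48 with the segmented duplex did not pass (limma adjusted p = 0.131).

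TEAD2 and TEAD3, which bind the same DNA letters as TEAD1 and TEAD4, went the other way. TEAD3 had log2 levels of 7.39 and 7.44 in mock, 8.73 with the intact and 8.14 with the segmented duplex. It was higher than both mock arrays with both duplexes, and higher with the intact than with the segmented one. The rise with the intact duplex was 2.49-fold (log2 change 1.32, SE 0.12, limma adjusted p = 0.0100), and the log2 change with the segmented duplex was 0.72 (limma adjusted p = 0.0575), which did not pass.

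TEAD2 had log2 levels of 8.48 and 8.22 in mock, 9.23 with the intact and 9.29 with the segmented duplex. Its mock arrays lay farther apart than those of any other gene of the 10, by 0.26, and both duplexes still lay above both. The rise with the intact duplex was 1.85-fold (log2 change 0.89, SE 0.16, limma adjusted p = 0.0325). With the segmented duplex the log2 change of 0.94, from the same mock arrays, did not pass (limma adjusted p = 0.0602). Its unadjusted limma p of 0.00498 was smaller than the 0.00622 with the intact duplex, so only the adjustment over all genes set the calls apart.

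YAP1, the coactivator that the Hippo kinases hold in check, was lower with both duplexes in its brightest probe sets but not in all. In 100302547_TGI_at, which stands for the gene, the log2 level was 11.48 and 11.57 in mock, 10.44 with the intact and 10.55 with the segmented duplex. The duplex arrays lay close together and far below mock: the fall was 2.13-fold with the intact duplex (log2 change -1.09, SE 0.13, limma adjusted p = 0.0136) and 1.97-fold with the segmented one (log2 change -0.98, limma adjusted p = 0.0423).

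The other 4 probe sets of YAP1 split. In 100137897_TGI_at the log2 level fell from 11.57 and 11.53 to 10.42 with the intact duplex (change -1.13), and it stood at 10.50 with the segmented one. The next pair did not show this. 100306340_TGI_at had 10.26 and 10.38 in mock, 10.82 with the intact and 10.46 with the segmented duplex. Its change with the intact duplex was a rise of 0.50, which did not pass in the main setting (limma adjusted p = 0.0995). With the prior that follows the level and is fitted robustly, it passed as higher (limma adjusted p = 0.00139). 100159835_TGI_at had 9.96 and 10.00 in mock, 10.15 with the intact and 9.77 with the segmented duplex. The dimmest, 100143582_TGI_at, had mock levels of 4.91 and 4.34, wide apart, and lay at 3.97 and 4.10 with the duplexes. Over all probe sets both of the brightest passed with the intact duplex (limma adjusted p = 0.0198 for the one that stands for the gene and 0.0178 for the other) and none of the 5 with the segmented one. With the mean of all 5 probe sets the YAP1 changes were -0.44 and -0.52 and neither passed (limma adjusted p = 0.0683 and 0.0840), so both YAP1 calls rest on the probe set chosen. Which stretch of the YAP1 transcripts each probe set reads was not analysed here.

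**Figure D2:**
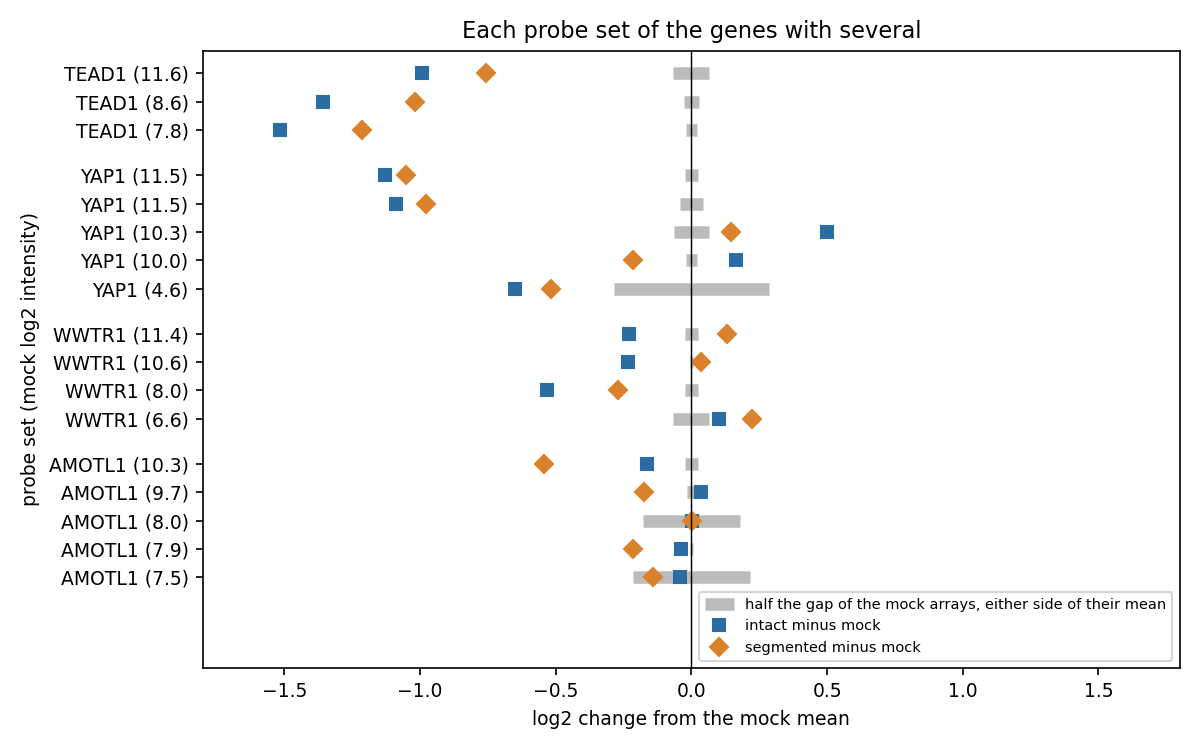
Log2 change from the mock mean of each probe set of TEAD1, YAP1, WWTR1 and AMOTL1, the genes with several, ordered by mock level (in brackets, log2 intensity); squares are the intact duplex, diamonds the segmented duplex, and the grey bar shows the spread of the mock pair around its mean. All TEAD1 probe sets lie to the left of 0 with both duplexes. YAP1 has both bright probe sets near -1, the next pair near or above 0, and the dimmest at -0.65 and -0.52.

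WWTR1, whose protein TAZ acts beside YAP1, did not pass with either duplex in the main setting. Its log2 level in the brightest probe set was 11.40 and 11.35 in mock, 11.14 with the intact and 11.50 with the segmented duplex. These lie below and above the mock pair. The log2 changes were -0.23 (95% interval -0.57 to 0.11, limma adjusted p = 0.255) and 0.13 (-0.21 to 0.47, limma adjusted p = 0.556). With the level-dependent, robust prior WWTR1 passed as lower with the intact duplex (limma adjusted p = 0.0353; 0.111 to 0.323 under the other alternatives). Its other 3 probe sets had changes between -0.53 and 0.10 with the intact duplex and between -0.27 and 0.22 with the segmented one. None passed over all probe sets in the main setting. With the level-dependent, robust prior 100158420_TGI_at passed as lower with the intact duplex (limma adjusted p = 0.0101).

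AMOTL1 and AMOTL2, relatives of angiomotin that bind YAP1 at junctions, did not pass either. AMOTL1 had log2 levels of 10.30 and 10.35 in mock, 10.16 with the intact and 9.78 with the segmented duplex, both below mock. The change with the intact duplex was -0.16 (95% interval -0.50 to 0.18, limma adjusted p = 0.397), and that with the segmented one was -0.54 (limma adjusted p = 0.0883). The 4 dimmer probe sets of AMOTL1 had changes between -0.21 and 0.00 with the segmented duplex, so the brightest stood apart from them.

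AMOTL2, which YAP1 and TEAD factors are themselves known to switch on, had a mean level just under the median of all genes. Its log2 level was 6.51 and 6.52 in mock, 6.81 with the intact and 6.35 with the segmented duplex, above and below mock. Neither change passed, 0.29 (95% interval -0.05 to 0.63, limma adjusted p = 0.169) and -0.16 (95% interval -0.50 to 0.17, limma adjusted p = 0.455).

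CCN1 and CCN2 encode secreted matrix proteins and are among the best known target genes of YAP1 and TEAD factors. CCN2 had intensities of 918 and 999 in mock cells, 269 with the intact and 348 with the segmented duplex, or log2 levels of 9.84, 9.96, 8.07 and 8.44. Neither duplex array came near the mock pair. The log2 change was -1.83 with the intact duplex (SE 0.13, limma adjusted p = 0.00865), and 1.18% of all genes had a lower one; with the segmented duplex it was -1.46 (limma adjusted p = 0.0354), and 0.636% of genes had a lower one.

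CCN1 had intensities of 1129 and 1182 in mock, 564 with the intact and 467 with the segmented duplex, or log2 levels of 10.14, 10.21, 9.14 and 8.87. It was the only gene of the 10 that passed with both duplexes and stood lower with the segmented than with the intact one, a difference that did not itself pass. The fall was 2.05-fold with the intact duplex (log2 change -1.03, SE 0.12, limma adjusted p = 0.0143) and 2.47-fold with the segmented one (log2 change -1.31, limma adjusted p = 0.0358). Both genes are also known to respond within minutes to serum and stretch, and each has a single probe set.

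**Figure D3:**
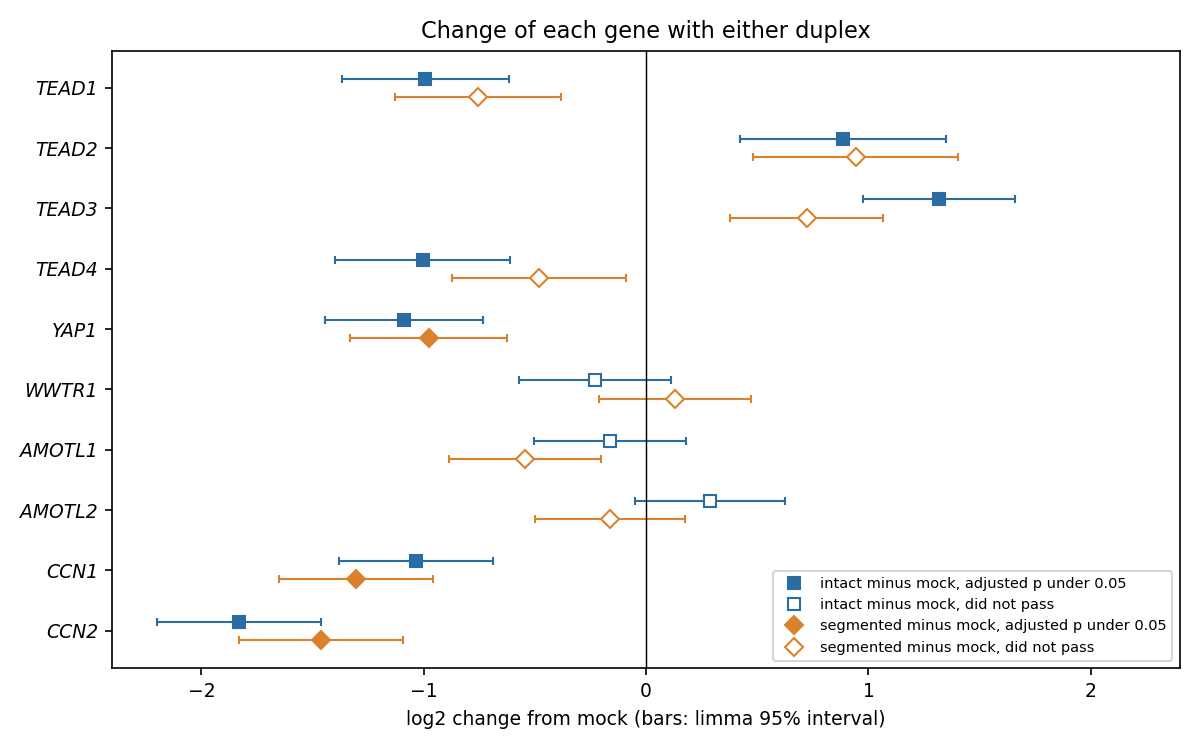
Log2 change from mock with the 95% interval of limma for each of the 10 genes; squares are the intact duplex and diamonds the segmented duplex, filled where the adjusted p was under 0.05. CCN2 lies farthest to the left with either duplex, at -1.83 and -1.46, and only YAP1, CCN1 and CCN2 are filled for the segmented duplex.

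The promoter of CCN2 is shown because CCN2 had the largest fall and its upstream window holds the letters that TEAD factors are known to bind. RefSeq promoters of GRCh38.p14 matched 7 of the 10 genes, with 10 start sites, and the 250 bases before each start were searched for GGAATG and its reverse complement CATTCC on both strands. A copy of either can share its last letter with the next copy of the same, and such copies were counted apart; the 3 in CCN2 do not overlap. At least 1 match was found in 11.9% of 35116 promoter windows and 3 or more in 0.0826% (29 windows), of which CCN2 is one. Its window is chr6:131951373-131951622 on the minus strand, printed 5′ to 3′ up to the base before the start site, with the matches in capitals.

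CCN2: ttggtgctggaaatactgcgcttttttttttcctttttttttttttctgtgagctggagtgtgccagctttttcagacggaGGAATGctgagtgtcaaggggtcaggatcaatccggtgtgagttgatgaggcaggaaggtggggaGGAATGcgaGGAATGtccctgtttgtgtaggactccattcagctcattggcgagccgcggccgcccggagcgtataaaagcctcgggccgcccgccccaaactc

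All 3 matches read GGAATG, beginning 169, 104 and 95 bases before the start. YAP1 and AMOTL2 had 1 match each, in YAP1 162 bases before its start and in AMOTL2 69 bases before 1 of its 2 starts, and the windows of TEAD2, TEAD3, WWTR1 and AMOTL1 had none. A match describes letters and is not evidence of binding in these cells.

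The difference between the duplexes was tested directly and 0 of 19798 genes passed (limma), against 3273 at an unadjusted p under 0.05. Among the latter were 3 of the 10 genes, TEAD3, TEAD4 and AMOTL2. TEAD3 was lower with the segmented than with the intact duplex by 0.60 on the log2 scale (95% interval of the change -0.99 to -0.20, limma adjusted p = 0.221), and it was the only 1 of the 10 with a difference of at least 1.5-fold, against 9.98% of all genes. TEAD4 stood higher with the segmented duplex by 0.52 (0.07 to 0.98, limma adjusted p = 0.268) and AMOTL2 lower, at -0.45 (-0.84 to -0.06, limma adjusted p = 0.267).

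For the genes that passed with both duplexes the intervals of the difference include 0 and are wide. YAP1 differed by 0.11 (95% interval -0.30 to 0.52), CCN1 by -0.27 (-0.67 to 0.13) and CCN2 by 0.37 (-0.06 to 0.80), segmented minus intact. TEAD1 differed by 0.24 (-0.20 to 0.67) and TEAD2 by 0.06 (-0.48 to 0.59), and WWTR1 (0.36) and AMOTL1 (-0.38) also had intervals that include 0. These intervals do not show that the duplexes act alike, since for CCN2 they allow a fall that is smaller by 0.80 with the segmented duplex. With the level-dependent, robust prior 2412 genes passed (12.2%), 4 of the 10 among them (TEAD3, TEAD4, WWTR1 and AMOTL1).

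By size alone, without a test, 7 of the 10 were 1.5-fold or more away from each mock array in the same direction with the intact duplex, against 23.2% of all genes, and 6 of 10 with the segmented one, against 12.3%. The 6 were TEAD1, TEAD2, TEAD3, YAP1, CCN1 and CCN2, and the intact duplex added TEAD4. Between the mock arrays themselves 0 of the 10 differed by that much, against 3.23% of all genes. Both comparisons use the same mock arrays.

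Around these genes, 16 measured genes of the Hippo kinase core had 3 falls and 2 rises with the intact duplex, while 11 missed the threshold, with a median log2 change of -0.10. Among all genes 10.4% fell and 14.5% rose, so the share of rises in this list lies near that of genes at large. WWC1, the gene of the scaffold KIBRA that activates the LATS kinases, fell most, from 8.06 and 7.87 in mock to 5.13 (log2 change -2.83, limma adjusted p = 0.00822). The kinase gene STK4, also called MST1, fell by 0.72 and MOB1B, a LATS cofactor gene, by 0.65. TAOK2, a kinase gene upstream, rose by 1.08, although the second of its 2 probe sets went the other way. LATS2, which phosphorylates YAP1, rose by 0.61, with 3 of 4 probe sets in that direction; it is also a known YAP1 target. LATS1 had a low level, with 26.6% of all genes lower by their mean, at 4.32 and 3.77 in mock and 3.88 with the intact duplex.

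With the segmented duplex, where 5.99% of all genes passed, 1 of these 16 did, WWC1, at 6.14 (log2 change -1.83, limma adjusted p = 0.0354), and the median of the list was 0.02. LATS2, at 0.57, did not pass (limma adjusted p = 0.0920). WWC1 has a single probe set, and it stood lower with the intact than with the segmented duplex.

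Among 17 measured junction and polarity genes that feed into the pathway, 5 rose (14.5% of all genes), 2 fell (10.4% of all genes) and 10 missed the threshold with the intact duplex (median 0.14), and 0 passed with the segmented one (median 0.01). AMOT, the gene of angiomotin itself, rose from 8.28 on both mock arrays to 9.18 (log2 change 0.90, limma adjusted p = 0.0174) and stood at 8.64 with the segmented duplex. The polarity genes SCRIB (0.68) and DLG5 (0.67) and the LATS inhibitor gene AJUBA (0.67) rose as well. RASSF1, whose protein binds the MST kinases, fell by 1.04, and WTIP, a relative of AJUBA, fell by 0.90. WTIP lay below the median of all genes, with mock levels of 5.97 and 5.63, wide apart, and 4.90 with the intact duplex. Of 11 measured genes of STRIPAK, a phosphatase complex that opposes the MST kinases, CTTNBP2NL rose (0.91), 10 did not pass, and 0 of 11 passed with the segmented duplex. Of the 4 VGLL genes, whose proteins compete with YAP1 for TEAD factors, 0 passed with either duplex, and VGLL4 had changes of 0.10 and -0.11. The share of all genes passing in either direction was 24.9% for the intact duplex and 5.99% for the segmented one. In lists this short, counts of 0 therefore do not set these genes apart from genes at large.

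Of 17 other known target genes of YAP1 and TEAD factors that were measured, 5 fell and 4 rose with the intact duplex while 8 did not pass, with a median log2 change of -0.05; 2 fell and 0 rose with the segmented one while 15 did not pass, with a median of -0.11. The shares of all genes were 10.4% lower and 14.5% higher for the intact duplex, 2.68% lower and 3.31% higher for the segmented one. NT5E, the gene of an enzyme that makes adenosine, fell by 1.76 with the intact duplex, DOCK5, an activator of Rac, by 1.27, F3, the gene of tissue factor, by 1.26, and ASAP1, a regulator of Arf GTPases, by 0.64. The receptor kinase gene AXL was the fifth that fell, from 12.23 and 12.27 to 11.67. GADD45A, a stress response gene that p53 also drives, rose by 0.71, ARHGEF17 by 0.65 and the kinase gene NUAK2 by 0.64. RBMS3, the other rise, is a change at very low signal: it went from 2.57 and 2.63 in mock to 3.25, with 11.7% of all genes lower by their mean level, and no detection call was used.

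F3 and ASAP1 were the target genes that fell with the segmented duplex, by 1.29 and 1.12 (limma adjusted p = 0.0362 and 0.0371). F3 had log2 levels of 12.35 and 12.43 in mock, 11.13 with the intact and 11.10 with the segmented duplex. NT5E had 11.80 and 11.85 in mock, 10.07 with the intact and 11.50 with the segmented duplex, where its change of -0.33 did not pass. ANKRD1, among the best known targets in other cells, lay near the bottom of the range on all 4 arrays, between 2.93 and 2.98.

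**Figure D4:**
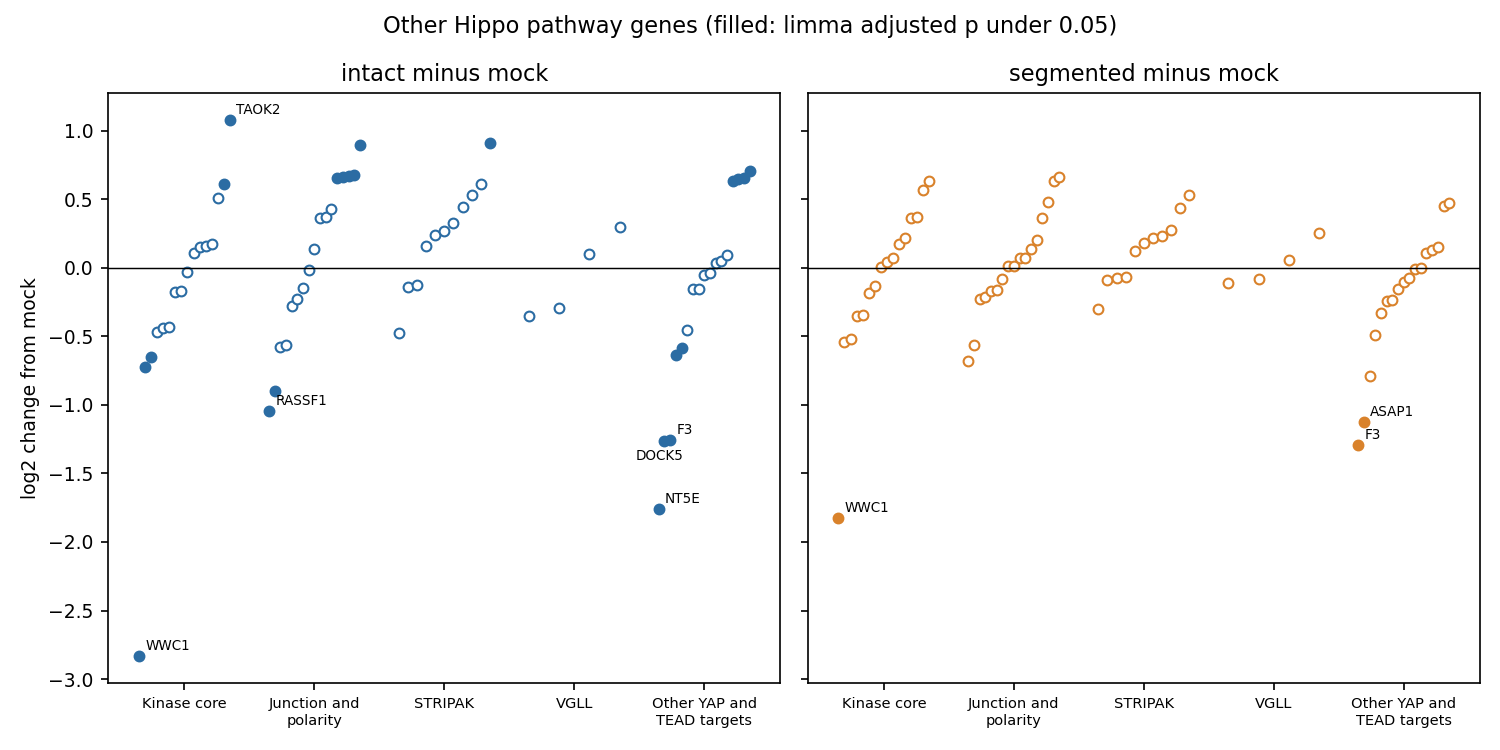
Log2 change from mock of the other Hippo pathway genes, 1 point per gene, in 5 lists along the horizontal axis and ordered by change within each; the left panel is the intact duplex, the right panel the segmented duplex, and filled points had a limma adjusted p under 0.05. Points lie on both sides of 0 in every list; WWC1 lies lowest in both panels, at -2.83 and -1.83.

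The genes whose pair of changes lay nearest to that of TEAD1, by Euclidean distance over the 3 conditions among 9890 genes above the median level, were TPP2 (-0.99 with the intact and -0.75 with the segmented duplex), KANK1 (-1.001 and -0.75), SLC60A2 (-1.002 and -0.77) and PTPN9 (-0.98 and -0.76). Nearest to YAP1 were ANKRD13C-DT (-1.07 and -0.97), NFATC1 (-1.07 and -0.99), SBDSP1 (-1.06 and -0.99) and RPL28 (-1.06 and -1.001). In all, 39 genes lay within 0.1 of TEAD1 and 24 within 0.1 of YAP1.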

How the data were processed

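The authors deposited linear intensities, 1 for each probe set on each array, from 2.51 to 22268, made with RMA per the submitters' processing notes; no source used here gives its version. RMA includes quantile normalization between arrays, so a change shared by most genes could be removed or made smaller. The deposited medians still differed between arrays, at 44.3 and 42.6 in mock, 46.3 with the intact and 45.3 with the segmented duplex. No detection call was used.

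The log2 of each intensity was taken without a pseudocount. Names of probe sets came from the platform's annotation, with symbols updated by Entrez identifier to RefSeq; 35184 had 1 gene, 374 several and 16819 none, and 35134 of the 35184 matched. The probe set with the highest mean stood for a gene. limma 3.58.1 in R 4.3.3 fitted the 3 group means to the 4 arrays with eBayes (1 residual degree of freedom, 2.89 prior), with Benjamini-Hochberg adjustment over 19798 genes, and again over 52377 probe sets. The procedure was also run on simulated data in which all 4 arrays of a gene had the same spread. That run cannot check whether a treated array varies like the mock pair.

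The members and the lists of other Hippo pathway genes were chosen from general knowledge, with earlier results of these data known. Named were all 10 members with every probe set, from each list at most 4 falls and 4 rises past the threshold, by size, LATS1, LATS2, VGLL4, AMOT, ANKRD1 and AXL in any case, and the 4 genes nearest to TEAD1 and to YAP1. Counts of a list cover the genes measured here. miR-124 target sites were not analysed here.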

Additional observations from a re-analysis of the deposited data

How the results depend on the processing

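Alternatives tried were quantile normalization once more, arrays centred on their medians, a fit without the dimmest 40% of genes, a trended and robust prior in eBayes, each gene's mean over its probe sets, log2(intensity + 16), and leaving out either mock array, which leaves no residual degree of freedom and so gives a value without a test. With the intact duplex 6 to 8 of the 10 genes passed under these. WWTR1 was the gene gained with trend and robust prior, and YAP1 the one lost with the mean of probe sets. Of all genes, 7809 (39.4%) passed with trend and robust prior in place of 4937 (24.9%). With the dimmest genes left out 6950 (58.5%) of the genes tested and 7 of the 10 passed. With log2(intensity + 16) these were 7022 (35.5%) and 7. With the segmented duplex the number of the 10 that passed was 5 in place of 3 with arrays centred (1673 of all genes, 8.45%). It was 4 with the mean of probe sets (1363 of all genes, 6.88%), where TEAD1 and TEAD3 passed and YAP1 did not. It was 8 with the dimmest genes left out, with trend and robust prior, and with log2(intensity + 16). Of all genes tested 4781 (40.2%), 5415 (27.4%) and 4279 (21.6%) passed under these last settings in that order, in place of 1186 (5.99%). For the difference of the duplexes the same settings gave 1850 (15.6%), 2412 (12.2%) and 1138 (5.75%) genes in place of 0, and 2, 4 and 1 of the 10. Over probe sets, trend and robust prior gave 12 of the 23 in place of 10 with the intact duplex. Of all probe sets 31.1% passed there in place of 17.1%. Those gained were 100306340_TGI_at of YAP1, as higher, and 100158420_TGI_at of WWTR1, as lower. With the segmented duplex it gave 11 of the 23 in place of 2, where 19.3% of all probe sets passed in place of 1.39%. For the difference it gave 3 in place of 0, where 7.55% passed in place of 0. At least 2-fold from both mock arrays stood 4 genes with the intact and 2 with the segmented duplex, in place of 7 and 6 at 1.5-fold, with 10.3% and 3.82% of all genes at 2-fold; without either mock array these stayed 7 and 6. The YAP1 difference between duplexes was -0.083 with the mean of its probe sets, in place of 0.11. Why the counts moved was not tested. No paired analysis was possible because each duplex has 1 array with no replicate number. The 4 arrays limit the precision of every value.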
